A study of Mus musculus with 31 samples.

Results

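Among the 31 lactating dams of the series, 15 received fluoxetine, and their mammary level of *Elovl6* spanned a wide range. The 15 fluoxetine dams were divided by that level. High Elovl6 dams were the 7 with the highest *Elovl6* in raw CPM (reads of a gene per 1000000 counted reads of its library), and low Elovl6 dams were the other 8. The high group held 4 dams on the breeder diet and 3 on the folic acid (FA) diet, and the low group held 3 and 5. The groups were therefore chosen by a measured value, so the *Elovl6* levels below are a description without a test. The comparison asked which other genes differed between fluoxetine dams that carried more or less of this transcript.

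All dams were C57BL/6J females bred at 6 weeks of age. They were fed a breeder diet with 4 mg/kg folic acid or an FA diet with 24 mg/kg, begun 2 weeks before mating. Fluoxetine, a selective serotonin reuptake inhibitor, was injected intraperitoneally at 20 mg/kg/day from embryonic day 13 to lactation day 10, and the other 16 dams (8 on each diet) received saline. Poly-A RNA of 1 mammary gland sample per dam was sequenced at lactation day 10. Each library is a separate animal, so the p-values measure the spread between dams. In these bulk samples, fewer cells of a type and less RNA per cell cannot be told apart.

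ELOVL6 is an enzyme of the endoplasmic reticulum that lengthens saturated and monounsaturated fatty acids, mainly palmitate to stearate. Its gene is a known target of the lipogenic transcription factor SREBP-1c. Lactating mammary epithelium makes fatty acids from glucose, and it esterifies them with fatty acids taken up from blood into the triglyceride of milk fat. Adipocytes of the mammary fat pad run the same enzymes.

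In the high Elovl6 dams, raw *Elovl6* was 291 CPM in dam 3 of the FA diet, 106 in dam 9 of the breeder diet, 103 in dam 6 of the FA diet, 89.4 in dam 13 of the breeder diet, 80.6 in dam 2 of the breeder diet, 79.3 in dam 1 of the FA diet and 63.5 in dam 8 of the breeder diet. In the low Elovl6 dams it was 58.4 CPM in dam 4 of the FA diet, 56.2 in dam 12 of the FA diet, 49.5 in dam 7 of the breeder diet, 46.7 in dam 2 of the FA diet, 41.7 in dam 10 of the FA diet, 37.9 in dam 5 of the breeder diet, 37.3 in dam 6 of the breeder diet and 30.3 in dam 5 of the FA diet. The dams just inside and just outside the division thus lay close together, at 63.5 and 58.4 CPM. Raw *Elovl6* of the 16 saline dams lay between 22.8 and 64.8 CPM, with a median of 31.7. After scaling of the libraries by the trimmed mean of M values (TMM), the same 7 dams ranked highest. TMM-scaled *Elovl6* was 57.1 to 130 CPM (median 86.6) in high dams, 35.5 to 50.7 CPM (median 48.4) in low dams and 25.7 to 51.9 CPM (median 35.3) in saline dams. All 7 high dams exceeded the highest saline dam on this scale, whereas the low dams lay within the saline range. The top of that range was 1 dam, saline dam 3 of the FA diet at 51.9 CPM, and the next saline dam was at 43.3 CPM. Low dams at 47.5, 49.3, 49.75, 50.5 and 50.7 CPM lay above this next dam, and those at 35.5, 35.7 and 39.05 CPM did not.

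**Figure D1:**
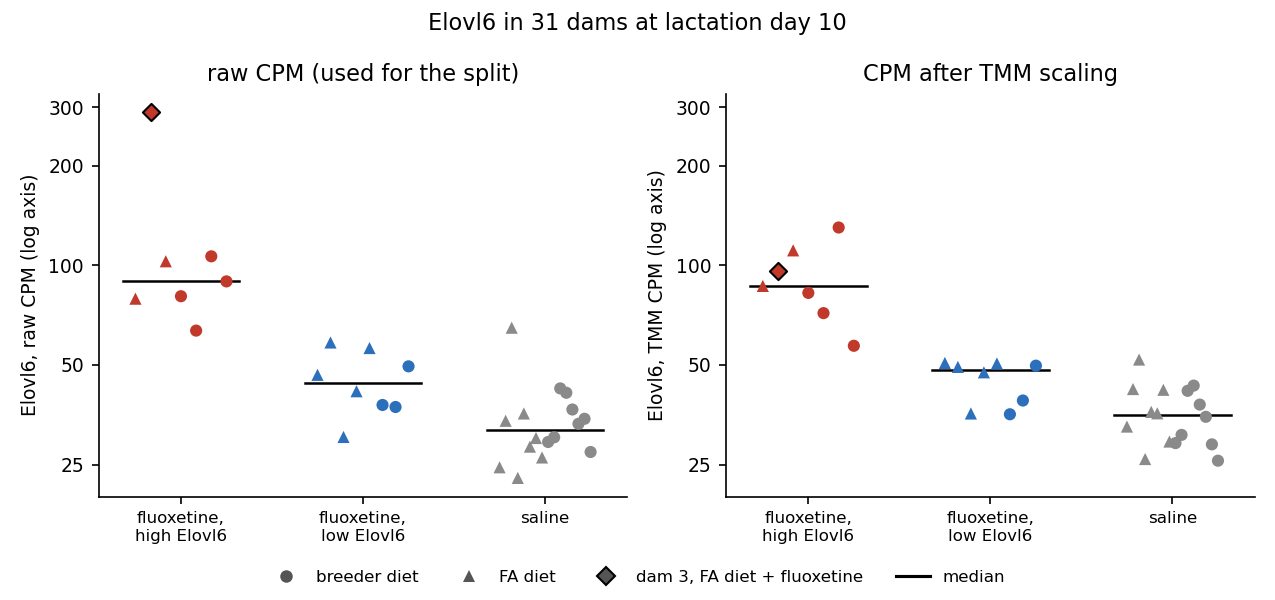
*Elovl6* in each dam as raw CPM (left, the values used for the division) and as TMM-scaled CPM (right), both on log axes, for high Elovl6 fluoxetine dams, low Elovl6 fluoxetine dams and saline dams. Circles are breeder diet, triangles FA diet, the outlined diamond dam 3 of the FA diet with fluoxetine, and bars group medians; dam 3 stands alone at 291 raw CPM but falls among the other high dams, at 96.2 CPM, after TMM scaling.

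*Elovl6* lies on the plus strand of mouse chromosome 3, from 129326004 to 129432144 in GRCm39, the build named in the processing notes of the submitters. GENCODE M39 places 5 non-coding genes over this interval. Of these, *Gm35986* and *Gm43072* were in the count table and neither had enough reads to be tested. The 250 bases before the RefSeq start of the gene (chr3:129532136-129532385, plus strand, in GRCm38.p6, a different build) are shown because this window is where lipogenic factors would be looked for, and no base is in capitals because none of the searched motifs occurred.

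Elovl6: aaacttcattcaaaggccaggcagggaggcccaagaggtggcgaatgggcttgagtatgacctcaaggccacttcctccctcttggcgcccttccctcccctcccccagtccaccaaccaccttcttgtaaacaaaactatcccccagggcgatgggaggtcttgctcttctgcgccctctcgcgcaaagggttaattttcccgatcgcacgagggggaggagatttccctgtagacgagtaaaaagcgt

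On both strands, the sterol regulatory element TCACNCCAC, the NF-Y box CCAAT, the E-box CACGTG and the GC box CCGCCC had 0 matches in this window. Among 32851 mouse windows of the same length, 1.05% held the sterol element, 33.8% the NF-Y box, 6.02% the E-box and 32.7% the GC box. The absence of these letters from the window says nothing about binding.

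The libraries held 18177514 to 30724585 counts in high dams and 17680150 to 36000439 in low dams. The mean difference in total counts was within the spread between dams (exact permutation test, two-sided, p = 0.542, n = 7 and 8). Genes with a count averaged 17210 in high and 18300 in low dams (exact permutation test, p = 0.0645, adjusted p = 0.258, n = 7 and 8). Without dam 3 of the FA diet the high mean was 17350. The share of the 20 most abundant genes averaged 70.8% and 76.4% (exact permutation test, p = 0.379, n = 7 and 8). TMM factors averaged 1.305 and 0.996 (exact permutation test, p = 0.382, n = 7 and 8). In its composition, dam 3 of the FA diet stood apart. Its 20 most abundant genes took 43.1% of counts, against 61.7% in dam 13 of the breeder diet and 73.0 to 79.7% in the other fluoxetine dams, and its summed milk protein genes came to 61760 CPM against 347800 to 848500 CPM. The milk protein genes *Wap*, *Csn2*, *Csn1s1* and *Lalba* and the luminal keratins *Krt8* and *Krt18* were present in every fluoxetine dam, as the tissue label requires. Fits without this library, called dam 3 below, are given beside the gene lists and most single genes.

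With diet as a covariate, edgeR's quasi-likelihood test called 0 of 14969 genes (0%) at a false discovery rate (FDR) of 10%. Before adjustment, a p of 0.05 or less was reached by 1139 genes, of which 659 (4.4% of those tested) were higher and 480 (3.21%) were lower in high Elovl6 dams. The logFC (log2 fold change, high minus low) was above 0 for 49.3% of genes, with a median of -0.01. The edgeR likelihood ratio test, which the study used for its own comparisons at this FDR, called 28 genes, and DESeq2 called 30. Of these, 24 were called by both and 19 of those were higher. Limma-voom with sample weights called 0 (1153 at unadjusted p of 0.05 or below). Without dam 3 of the FA diet, the quasi-likelihood test called 0 of 15388 genes, with 460 higher (2.99%) and 450 lower (2.92%) at an unadjusted p of 0.05 or below and 48.8% of genes above 0. Within the breeder diet alone and within the FA diet alone it also called 0 genes, with 596 and 813 genes at an unadjusted p of 0.05 or below. With each dam left out in turn it called 0 to 7 genes, namely 7 without dam 7 of the breeder diet, a low dam, 1 without dam 8 of the breeder diet and 1 without dam 6 of the FA diet. None of the genes below therefore passed the threshold in the quasi-likelihood test with all dams, and the values describe these dams.

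The gene with the smallest p was *Kcnk3*, which encodes a background potassium channel. *Kcnk3* was 1.91, 2.1, 2.44, 2.58, 3.38, 6.05 and 9.18 CPM in the 7 high dams and 0.347, 0.393, 0.425, 0.601, 0.748, 0.947, 0.954 and 1.25 CPM in the 8 low dams. The groups did not overlap. Its logFC was 2.47 ± 0.40 (SE; edgeR adjusted p = 0.105) with all dams and 1.995 without dam 3 of the FA diet (adjusted p = 0.14), and it was 1.71 within the breeder diet and 3.16 within the FA diet. Saline dams ranged from 0.18 to 2.79 CPM, so 3 of the 7 high dams lay above all of them.

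The next genes by p were *Amy1*, *Adissp*, *Aspg* and *Cdo1*. *Amy1*, an amylase gene, had a lowest, median and highest value of 4.94, 5.36 and 10.2 CPM in high dams and 1.54, 2.45 and 3.76 CPM in low dams, a logFC of 1.22 ± 0.22 (edgeR adjusted p = 0.19; 1.06 without dam 3 of the FA diet). Amylase genes are near-identical copies, so the assignment of reads to *Amy1* is uncertain. *Adissp*, which encodes a protein secreted by adipose tissue, was 5.33, 8.30 and 18.4 CPM in high dams and 2.73, 4.26 and 4.72 CPM in low dams (logFC 1.17 ± 0.23, edgeR adjusted p = 0.273; 0.88 without dam 3). In both genes every high dam exceeded every low dam. *Aspg*, an asparaginase gene, was 2.43, 3.77 and 15.6 CPM in high dams and 0.327, 1.52 and 1.97 CPM in low dams, and all 7 high dams also exceeded the highest saline dam at 2.001 CPM (logFC 2.13 ± 0.43, edgeR adjusted p = 0.273; 1.54 without dam 3). *Cdo1*, which encodes the cysteine dioxygenase of taurine synthesis, was 14.4, 17.5 and 54.9 CPM in high dams and 6.06, 9.03 and 14.5 CPM in low dams (logFC 1.32 ± 0.26, edgeR adjusted p = 0.273; 0.95 without dam 3). The *Cdo1* ranges touched, with 6 of 7 high dams above the highest low dam. All 5 genes were among the 24 called by both the likelihood ratio test and DESeq2.

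Complete separation of the groups was seen for 12 genes with every high dam above every low dam (0.0802% of those tested) and for 3 genes with every high dam below every low dam (0.02%). The higher genes included *Kcnk3*, *Amy1*, *Adissp*, *Aspg*, *Krt19*, *Rbpms2*, *Gm38384*, *Fcgr3*, *Aplp2*, *Trim29* and *Idh1*, and the 3 lower genes were *Sox5*, *Zfp119b* and *Esrrg*. Apart from the 4 described above and *Krt19*, these genes are listed after their values were seen. *Krt19*, a luminal epithelial keratin, was 17.0, 21.7 and 63.2 CPM in high dams and 6.92, 13.6 and 15.8 CPM in low dams, yet saline dams spanned 6.51 to 44.7 CPM and only 1 high dam exceeded them. *Idh1*, the cytosolic NADPH-producing isocitrate dehydrogenase, was 7.84 to 23.1 CPM in high dams and 4.95 to 7.51 CPM in low dams. *Gm38384* was only 0.0954 to 1.08 CPM in high dams and 0 to 0.0867 CPM in low dams, so its separation rests on few reads. The filter on low counts used the groups of diet and division, so such a gene could be tested through the dams where it was higher.

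**Figure D2:**
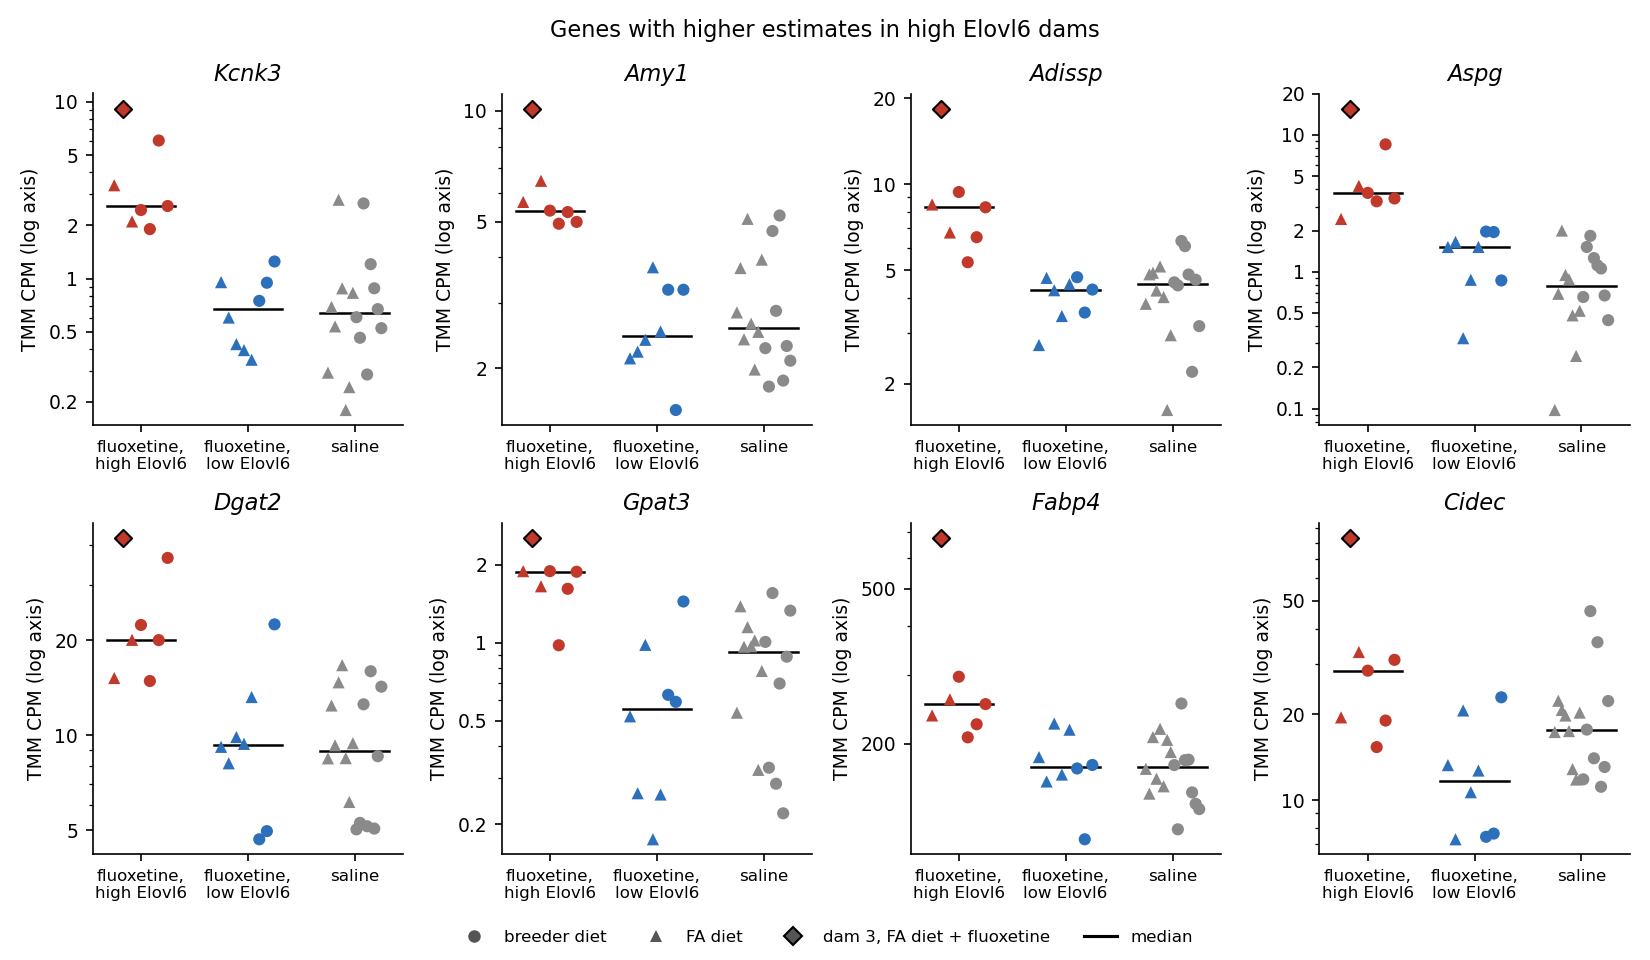
TMM-scaled CPM (log axes) of *Kcnk3*, *Amy1*, *Adissp*, *Aspg*, *Dgat2*, *Gpat3*, *Fabp4* and *Cidec* in each dam, by group; circles are breeder diet, triangles FA diet, the outlined diamond dam 3 of the FA diet with fluoxetine, and bars group medians. The 4 genes of the top row show no overlap of high and low dams, the 4 of the bottom row overlap, and dam 3 is the highest fluoxetine dam in each of the 8.

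Among the genes lower in high Elovl6 dams, the smallest p values belonged to *Ppp1r14c*, *Synm*, *Lrrc30*, *Trim6* and *Psph*. *Ppp1r14c*, which encodes a phosphatase inhibitor, had 0 counts in 4 of 7 high dams and at most 0.0977 CPM in the others, against 0 to 3.23 CPM in low dams (median 0.306). *Lrrc30* had 0 counts in 6 of 7 high dams and in 3 of 8 low dams, with at most 2.2 CPM. For both genes the largest value was that of a low dam with much skeletal muscle RNA (dam 10 of the FA diet for *Ppp1r14c*, dam 5 of the breeder diet for *Lrrc30*), and neither had enough reads to be tested without those dams. *Synm*, an intermediate filament gene of muscle, was 6.79, 9.26 and 12.04 CPM in high dams and 9.64, 15.7 and 34.6 CPM in low dams (logFC -0.97 ± 0.24, edgeR adjusted p = 0.633), and its logFC was -0.59 without those low dams.

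*Trim6*, a ubiquitin ligase gene, was 0.844, 1.71 and 2.23 CPM in high dams and 1.49, 3.48 and 4.42 CPM in low dams (logFC -1.06 ± 0.27). *Psph*, whose product completes the synthesis of serine, was 1.64, 3.03 and 4.25 CPM in high dams and 3.83, 5.02 and 6.77 CPM in low dams (logFC -0.76 ± 0.20, edgeR adjusted p = 0.633; -0.61 without dam 3 of the FA diet). The *Psph* groups overlapped only between 3.83 and 4.25 CPM. In saline dams, the slope of *Psph* on *Elovl6* was -0.86 (log2 per log2 unit of *Elovl6*, unadjusted p = 0.0222).

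None of the other elongation and desaturation genes differed past the threshold. Of the 17 tested, 4 had a logFC above 0 and 0 reached an unadjusted p of 0.05 in either direction (background 4.4% higher and 3.21% lower), with a median logFC of -0.24. Without dam 3 of the FA diet, 10 of 18 were above 0, with a median of 0.03. *Elovl5*, the elongase of polyunsaturated fatty acids, was 30.9, 228 and 440 CPM in high dams and 208, 341 and 508 CPM in low dams (logFC -0.60 ± 0.36; -0.33 without dam 3). *Elovl1*, the elongase of very long saturated chains, was 14.8, 93.3 and 130 CPM in high dams and 67.2, 94.5 and 130 CPM in low dams. Its logFC was -0.23 with dam 3 and 0.04 without it. The lowest value of both genes was that of dam 3, and the other high dams lay among the low dams.

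The stearoyl-CoA desaturase *Scd1*, which acts on the product of ELOVL6, was 1377, 1812 and 2946 CPM in high dams and 1087, 1602 and 5015 CPM in low dams (logFC -0.24 ± 0.35). Its paralog *Scd2* had the smallest p of the list, with 23.9, 80.6 and 218 CPM in high dams and 69.6, 136 and 319 CPM in low dams (logFC -0.81 ± 0.40, unadjusted p = 0.0605, edgeR adjusted p = 0.671). The desaturases of polyunsaturated fatty acids had logFC values of -0.25 for *Fads1* (0.02 without dam 3) and -0.42 for *Fads2* (-0.15 without dam 3). Of the enzymes that complete each elongation cycle, logFC values were -0.43 for the reductase *Hsd17b12* and -0.05 for the reductase *Tecr*. The dehydratases *Hacd1*, *Hacd2*, *Hacd3* and *Hacd4* were at -0.18, -0.16, -0.24 and 0.54. The remaining members were *Elovl4* at 1.03, *Fads3* at 0.32, *Scd3* at 0.03, *Elovl7* at -0.39 and *Fads6* at -0.42.

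**Figure D3:**
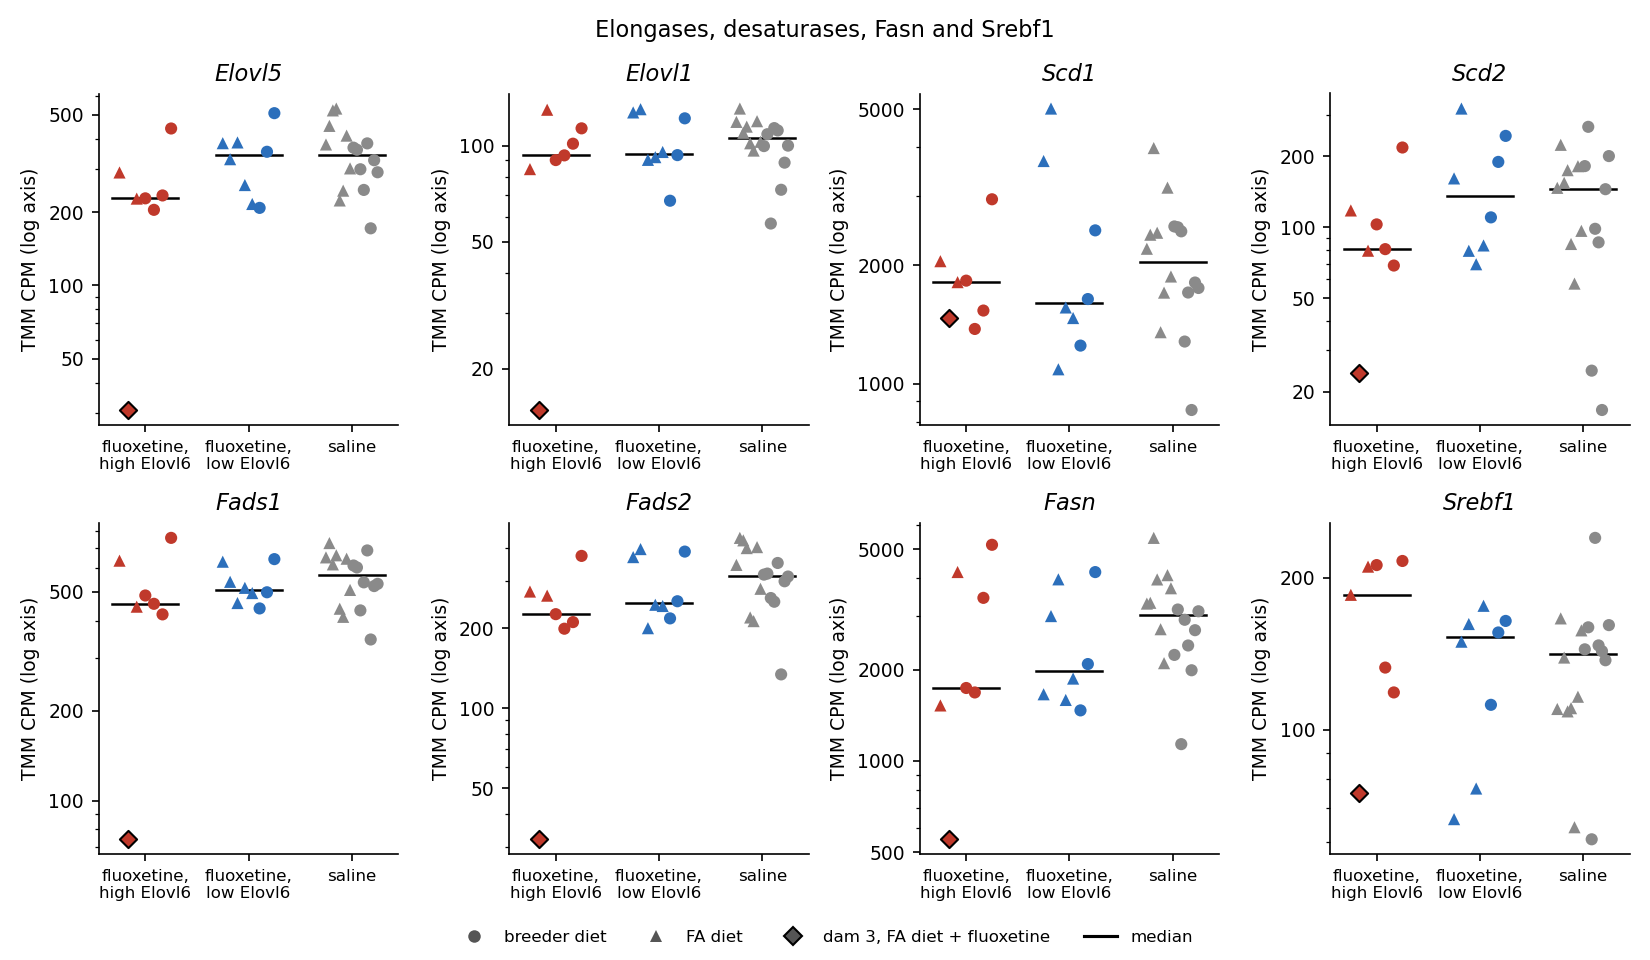
TMM-scaled CPM (log axes) of the elongases *Elovl5* and *Elovl1*, the desaturases *Scd1*, *Scd2*, *Fads1* and *Fads2*, the fatty acid synthase *Fasn* and the transcription factor gene *Srebf1* in each dam, with symbols as in the other plots of single genes. High and low dams overlap in all 8 genes, and dam 3 of the FA diet, the outlined diamond, is low for *Elovl5* (30.9 CPM) and *Elovl1* (14.8 CPM).

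Genes upstream of ELOVL6 in the pathway also had small estimates. Over all genes tested, 49.3% were above 0, and 4.4% were higher and 3.21% lower at an unadjusted p of 0.05. Without dam 3 of the FA diet these shares were 48.8%, 2.99% and 2.92%. Of 16 genes of de novo fatty acid synthesis, 5 had a logFC above 0 and 0 reached an unadjusted p of 0.05, with a median of -0.09, and without dam 3 of the FA diet 9 of 16 were above 0 (median 0.08). *Fasn*, the fatty acid synthase that makes palmitate, was 552, 1740 and 5162 CPM in high dams and 1468, 1978 and 4196 CPM in low dams (logFC -0.02 ± 0.41; 0.23 without dam 3 of the FA diet). *Srebf1*, which encodes SREBP-1, was 75.1, 185 and 216 CPM in high dams and 66.6, 153 and 176 CPM in low dams (logFC 0.26 ± 0.26; 0.43 without dam 3). *Fasn* and *Srebf1* were named after their values were seen. SREBP and other lipogenic regulators had 10 of 22 members above 0 (median -0.03, 1 higher at an unadjusted p of 0.05), and 12 of 22 without dam 3 (median 0.03, 0 at that p). Cholesterol synthesis, the other branch under SREBP control, had 4 of 22 above 0 (median -0.30, 2 lower), and 7 of 22 without dam 3 (median -0.16, 0 lower).

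Triglyceride assembly was the lipid list with the most members higher at an unadjusted p of 0.05. Of 15 tested, 10 were above 0 and 4 were higher at an unadjusted p of 0.05 (background 4.4%), with a median logFC of 0.26 and 0.29 without dam 3 of the FA diet (12 above 0, 3 at that p, background 2.99%). *Dgat2*, which adds the last acyl chain of triglyceride, was 14.9, 20.1 and 42.2 CPM in high dams and 4.68, 9.29 and 22.5 CPM in low dams (logFC 1.25 ± 0.32, edgeR adjusted p = 0.633; 0.99 without dam 3). Only dam 7 of the breeder diet, at 22.5 CPM, placed a low dam among the high dams. *Agpat2*, an acyltransferase earlier in the same route, was 15.5, 24.5 and 32.9 CPM in high dams and 10.2, 13.2 and 21.7 CPM in low dams (logFC 0.71 ± 0.19; 0.62 without dam 3). *Gpat3*, which acylates glycerol phosphate, was 0.977, 1.88 and 2.53 CPM in high dams and 0.175, 0.556 and 1.44 CPM in low dams (logFC 1.53 ± 0.42; 1.37 without dam 3), with 6 of 7 high dams above every low dam and above every saline dam. *Dgat1*, the second enzyme of the last step, had a logFC of 0.21 ± 0.16 and 0.30 without dam 3.

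Markers of adipocytes were at higher estimates in the same dams. Of 15 adipocyte markers tested, 14 had a logFC above 0 (background 49.3%) and 7 were higher at an unadjusted p of 0.05 (background 4.4%), with a median of 0.69. With dam 3 of the FA diet left out, 15 of 16 were above 0 and 6 were higher at that p (background 2.99%), with a median of 0.56. Their summed level was 729 to 1685 CPM (median 1007) in high dams, 362 to 1134 CPM (median 687) in low dams and 619 to 1448 CPM (median 801) in saline dams. No defining marker was at 0 in any fluoxetine dam. *Fabp4*, the fatty acid binding protein of adipocytes, was 208, 253 and 676 CPM in high dams and 114, 174 and 225 CPM in low dams (logFC 0.84 ± 0.23; 0.54 without dam 3). *Cidec*, a lipid droplet protein, was 15.3, 28.5 and 83.2 CPM against 7.29, 11.7 and 22.9 CPM (logFC 1.36 ± 0.34; 0.95 without dam 3), and *Retn*, resistin, was 21.2, 31.9 and 50.6 CPM against 6.27, 14.2 and 29.1 CPM (logFC 1.05 ± 0.29; 1.10 without dam 3). The exception was *Lep*, leptin, at -0.32 ± 0.28, while *Adipoq*, adiponectin, was at 0.80 ± 0.30, *Plin1*, perilipin, at 1.07 ± 0.37 and *Mrap*, a melanocortin receptor partner, at 1.44 ± 0.32. Without dam 3 these 4 were at -0.38, 0.71, 0.68 and 1.23. *Lep*, *Adipoq*, *Plin1* and *Mrap* were named after their values were seen.

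The adipocyte level of each dam was taken as the mean log2 CPM of the adipocyte list. With this level as a covariate, the genes at an unadjusted p of 0.05 or below numbered 284 instead of 1139. Of these, 88 were higher (0.588% of genes tested, against 4.4%) and 196 were lower (1.31%, against 3.21%). The adipocyte level was itself higher in most high dams, so this fit separates it poorly from the division. The drop therefore does not measure the part of adipocytes. In the fit with this covariate the logFC was 0.30 for *Dgat2*, 0.25 for *Agpat2* and 0.70 for *Gpat3*. It was 1.45 for *Kcnk3*, 1.23 for *Aspg*, 0.80 for *Amy1*, 0.61 for *Adissp* and 0.48 for *Cdo1*. The number of adipocytes in a sample was not measured.

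**Figure D4:**
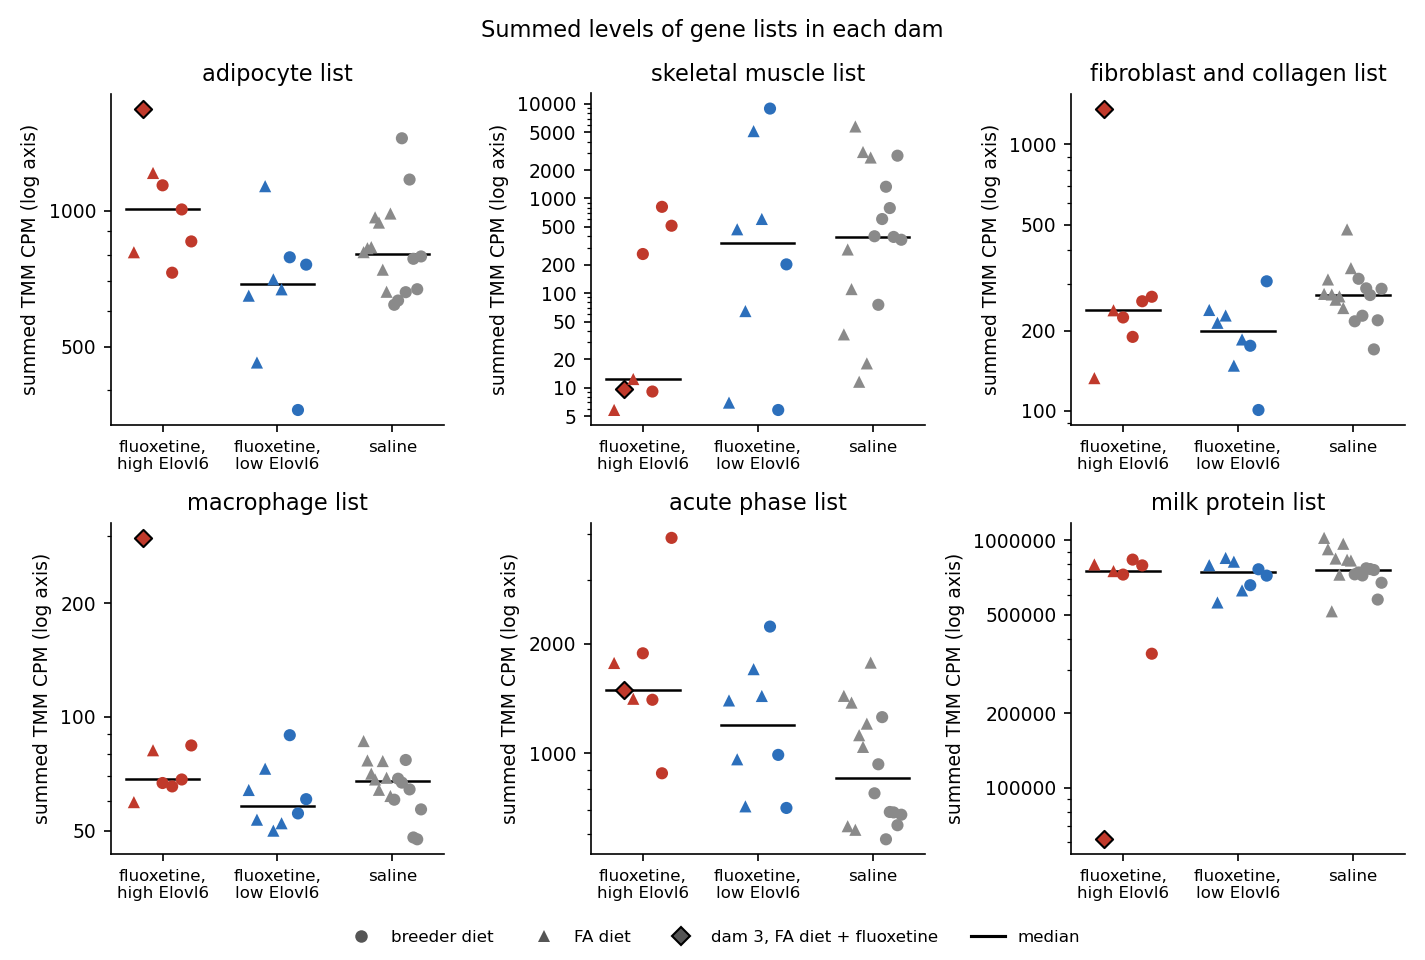
Summed TMM-scaled CPM (log axes) of the adipocyte, skeletal muscle, fibroblast and collagen, macrophage, acute phase and milk protein lists in each dam, by group, with bars at the medians. Adipocyte sums are higher in most high dams, muscle sums are highest in 2 low dams, and dam 3 of the FA diet (outlined diamond) stands apart in fibroblast, macrophage and milk protein genes.

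Skeletal muscle genes were the list with the most members lower at an unadjusted p of 0.05. All 18 had a logFC below 0 and 17 were lower at an unadjusted p of 0.05 (background 3.21%), with a median of -5.07. In the fit that left out dam 3 of the FA diet, all 18 were below 0 and 6 were lower at that p (background 2.92%), with a median of -4.34. Their summed level was 5.81 to 816 CPM (median 12.3) in high dams and 5.80 to 8932 CPM (median 337) in low dams, so the ranges overlapped almost fully at their lower end. The 2 highest sums were those of dam 5 of the breeder diet (8932 CPM) and dam 10 of the FA diet (5156 CPM), both low dams. Without these 2 dams, a fit added after the data were seen, 1 of the 18 was lower at an unadjusted p of 0.05 and the median was -3.34, and without dam 3 of the FA diet as well it was 0 and -1.29. *Acta1*, skeletal muscle actin, ranged from 0 to 122 CPM in high dams and from 0.0867 to 1536 CPM in low dams, and it was named after its values were seen. Saline dams had muscle sums of 11.5 to 5776 CPM.

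Stromal and immune lists had higher estimates that were much smaller once 1 dam was left out. Over all genes tested, 49.3% were above 0 and 4.4% were higher at an unadjusted p of 0.05, and without dam 3 these shares were 48.8% and 2.99%. All 14 fibroblast and collagen genes had a logFC above 0 and 7 were higher at an unadjusted p of 0.05 (median 1.03), but without dam 3 of the FA diet 9 of 14 were above 0, 0 reached that p, and the median was 0.03. The summed level of this list was 1363 CPM in dam 3 and 101 to 306 CPM in the other fluoxetine dams. *Fn1*, fibronectin, was 1.19, 2.83 and 56.4 CPM in high dams and 0.769, 2.27 and 5.39 CPM in low dams (logFC 1.88 ± 0.70; 0.38 without dam 3). Macrophage markers had 12 of 12 above 0 and 4 at an unadjusted p of 0.05 (median 0.57), and 8 and 1 without dam 3 (median 0.12). *Cd68*, a lysosomal marker of macrophages, was 1.94, 3.34 and 9.44 CPM in high dams and 0.612, 1.75 and 2.78 CPM in low dams (logFC 1.25 ± 0.37; 0.71 without dam 3). Complement genes had 11 of 12 above 0 (5 at an unadjusted p of 0.05, median 1.05), and 6 of 12 without dam 3 (1 at that p, median -0.03). *C3*, the central complement component, had a logFC of 1.58 ± 0.55 with dam 3 and 0.68 without it. Medians for complement, macrophage and fibroblast genes were -0.03, 0.10 and 0.20 within the breeder diet and 1.99, 1.42 and 1.76 within the FA diet, which holds dam 3.

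Acute phase genes, which respond to inflammatory cytokines, had 11 of 13 members above 0 and 3 higher at an unadjusted p of 0.05 (background 49.3% and 4.4%). Without dam 3 of the FA diet, 11 were above 0 and 1 was higher at that p (background 2.99%). The median was 1.21 with all dams, 0.77 without dam 3 of the FA diet and 0.42 without dam 13 of the breeder diet. *Saa1*, serum amyloid A, was 1.32, 53.7 and 382 CPM in high dams and 0.719, 11.4 and 44.3 CPM in low dams (logFC 3.03 ± 1.26, unadjusted p = 0.032; 2.14 without dam 3). Its groups overlapped, with 4 high dams above every low dam and 2 at or below 1.61 CPM. LogFC values were 3.27 ± 1.61 for *Saa2*, 1.21 ± 1.19 for *Orm2*, 1.95 ± 1.29 for the protease inhibitor gene *Slpi* and 0.38 ± 0.39 for the iron-binding lipocalin gene *Lcn2*. For the last 3 the highest high dam was dam 13 of the breeder diet, at 376, 324 and 1788 CPM. Without that dam the logFC was 0.15 for *Orm2*, 0.42 for *Slpi* and 0.10 for *Lcn2*. Without dam 3 of the FA diet it was 1.77, 2.53 and 0.61 for these genes and 1.29 for *Saa2*, and *Saa2* was at 5.17 without dam 5 of the breeder diet, a low dam. Of the neutrophil markers, *Ngp* and *Retnlg* were at 0 in 12 and 11 of the 15 fluoxetine dams. *S100a8* and *S100a9* were at 0 in only 2 and 6, so most dams had reads of these. *S100a8* reached 2.61 CPM in high dams and 1.93 CPM in low dams (logFC 0.77). *S100a9* reached 1.23 and 2.16 CPM (logFC -0.24).

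Interferon-stimulated genes had 15 of 19 members above 0 and 4 higher at an unadjusted p of 0.05 (background 49.3% and 4.4%, median 0.26). They had 16 above 0 and 3 higher at that p without dam 3 of the FA diet (background 2.99%, median 0.26). *Irf7*, a transcription factor of the interferon response, was 5.41, 9.22 and 21.6 CPM in high dams and 1.78, 5.36 and 7.13 CPM in low dams (logFC 1.01 ± 0.29; 0.67 without dam 3 of the FA diet). *Tph1*, the rate-limiting enzyme of serotonin synthesis outside the brain, was 0.293, 0.794 and 12.5 CPM in high dams and 0.263, 0.539 and 0.737 CPM in low dams. Its logFC was 2.09 ± 0.66 (edgeR adjusted p = 0.633) and 0.71 without dam 3.

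Genes of milk synthesis had mostly lower estimates with dam 3 of the FA diet in the fit, and part of this was absent without it. The background over all genes tested was 49.3% above 0 and 3.21% lower at an unadjusted p of 0.05. Without dam 3 it was 48.8% and 2.92%. Milk protein genes had 1 of 10 members above 0 (median -0.31) with dam 3, and 3 of 10 without it (median -0.04, 2 lower at an unadjusted p of 0.05). Genes of lactose and glucose metabolism had 2 of 19 above 0 and 2 lower at an unadjusted p of 0.05 (median -0.31), and without dam 3 they had 3 of 19 above 0 and 1 lower at that p (median -0.15). *Ugp2*, which makes UDP-glucose, was 16.6, 27.6 and 31.02 CPM in high dams and 25.4, 40.8 and 46.4 CPM in low dams (logFC -0.56 ± 0.17; -0.45 without dam 3). Milk fat globule genes had 2 of 11 above 0 (median -0.14) with dam 3 and 7 of 11 (median 0.04) without it, and *Btn1a1*, butyrophilin of the globule membrane, had a logFC of -0.72 ± 0.31 (-0.49 without dam 3).

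Amino acid transporters had 3 of 16 members above 0 (background 49.3%, median -0.40), with 1 higher and 4 lower at an unadjusted p of 0.05 (background 4.4% and 3.21%). They had 2 of 16 above 0 (background 48.8%, median -0.29), with 1 higher and 3 lower at that p (background 2.99% and 2.92%), without dam 3 of the FA diet. The 1 higher was *Slc1a5*, the neutral amino acid exchanger that carries glutamine, at 25.7, 42.6 and 79.0 CPM in high dams and 13.0, 22.4 and 46.7 CPM in low dams (logFC 1.15 ± 0.28, edgeR adjusted p = 0.633; 1.04 without dam 3 of the FA diet). *Slc1a3*, a glutamate transporter, was 5.49, 11.2 and 13.0 CPM in high dams and 11.3, 17.0 and 22.5 CPM in low dams (logFC -0.70 ± 0.19; -0.53 without dam 3). *Slc3a2*, the shared heavy chain of several transporters, had a logFC of -0.63 ± 0.23 (-0.47 without dam 3). Ribosomal protein genes had 20 of 24 above 0 with 0 at an unadjusted p of 0.05 (median 0.14), and without dam 3 they had 22 above 0 with 10 higher at that p (background 2.99%, median 0.26). *Rps19*, the member with the smallest p, had a logFC of 0.40 ± 0.20 with dam 3 and 0.55 without it.

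Fatty acid oxidation genes had 14 of 17 members above 0 (median 0.12, 2 higher at an unadjusted p of 0.05), and without dam 3 of the FA diet they had 13 of 17 (median 0.15, 1 higher). The background was 49.3% above 0, with 4.4% higher and 3.21% lower at that p. Without dam 3 it was 48.8%, 2.99% and 2.92%. Genes of fatty acid uptake and activation had 6 of 18 above 0 (median -0.15, 2 higher and 1 lower) with dam 3, and 10 of 18 (median 0.06, 3 higher and 0 lower) without it. The 20 remaining lists, which covered signalling, metabolism and cell type markers, had medians between -0.21 and 0.57 with at most 2 members higher and 1 lower at an unadjusted p of 0.05. Without dam 3 their medians lay between -0.32 and 0.47, with at most 2 members lower at that p and at most 5 higher. The 5 were genes of oxidative phosphorylation, of which 16 of 21 were above 0 (median 0.13) without dam 3, and 7 of 21 with 0 at that p (median -0.04) with it. List medians without dam 3 are over the members tested in that fit. Over the members tested with all dams, the T cell median without dam 3 was -0.83, below the range given.

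**Figure D5:**
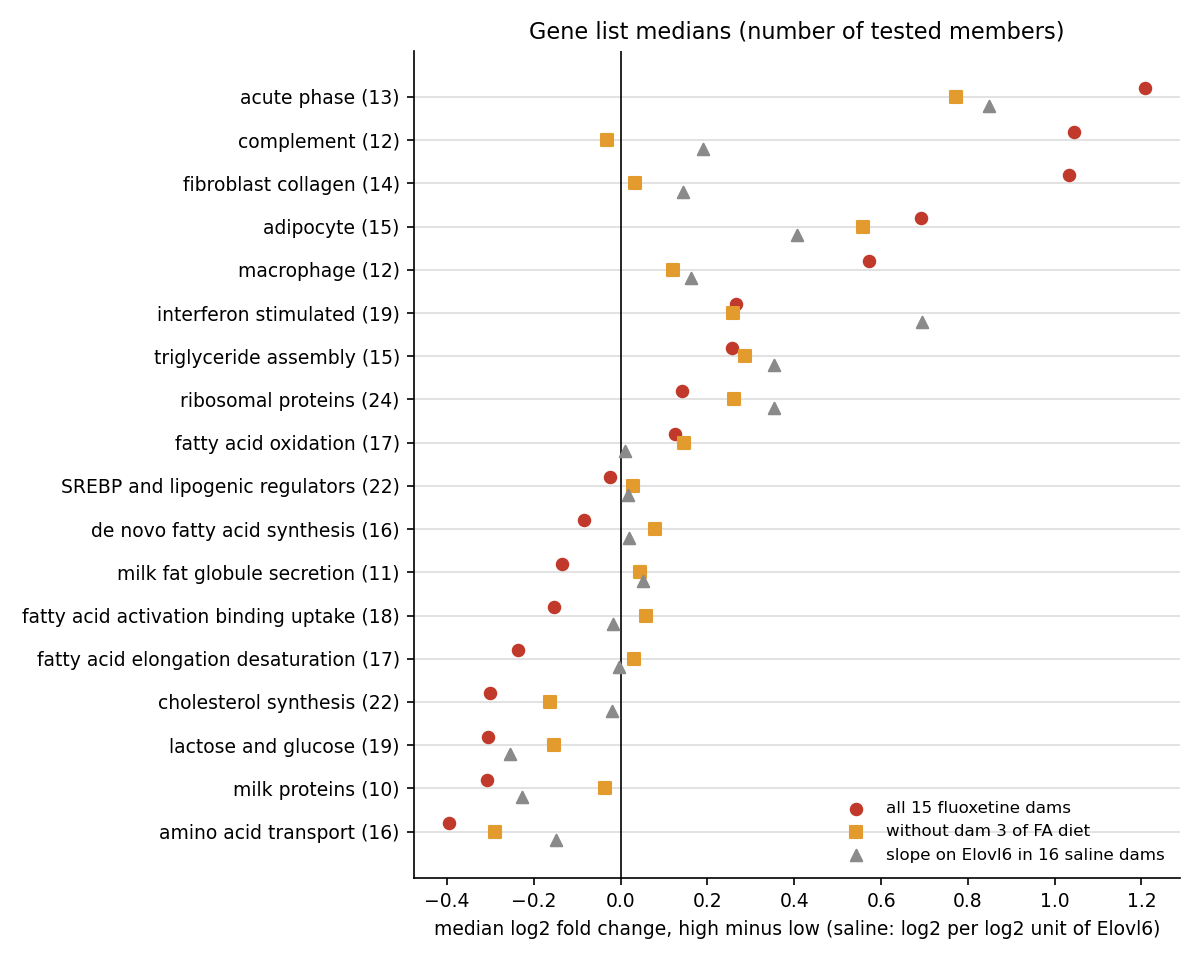
Median logFC (horizontal axis, log2) of 18 gene lists, with the number of tested members in brackets, for all 15 fluoxetine dams (circles), for 14 without dam 3 of the FA diet (squares), and as the slope on *Elovl6* in 16 saline dams (triangles, log2 per log2 unit). Complement and fibroblast medians drop from 1.05 and 1.03 to -0.03 and 0.03 without dam 3, the adipocyte median goes from 0.69 to 0.56, and skeletal muscle is left out because its median of -5.07 lies far off the scale.

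Other genes linked to fluoxetine in these dams gave small estimates or estimates with wide errors. *Serhl*, *Pgm5* and *Jazf1* had logFC values of -0.03 ± 0.19, -0.16 ± 0.21 and -1.31 ± 0.95. *Jazf1* was at most 0.445 CPM in high dams and 0.532 CPM in low dams, so its estimate rests on few reads. *Itpr2*, a calcium release channel of the endoplasmic reticulum, was 11.6, 15.5 and 48.3 CPM in high dams and 8.38, 12.6 and 17.9 CPM in low dams (logFC 0.64 ± 0.28, unadjusted p = 0.0317; 0.17 without dam 3 of the FA diet).

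The 16 saline dams gave a comparison in animals that the division did not use. In them, the slope of each gene on TMM-scaled *Elovl6* was fitted with diet as a covariate. edgeR's quasi-likelihood test called 0 of 12912 genes at an FDR of 10% (likelihood ratio test 5, DESeq2 8), with 411 (3.18%) of positive slope and 303 (2.35%) of negative slope at an unadjusted p of 0.05 or below, and the smallest adjusted p was 0.373. The interferon-stimulated gene *Irf7* was among the smallest, with a slope of 1.88 (unadjusted p = 5.78e-05). *Saa1* had a slope of 5.05 (unadjusted p = 0.00158), *Aspg* 1.48 (0.0327), *Krt19* 1.37 (0.0386), *Retn* 0.87 (0.0174) and *Fabp4* 0.52 (0.0281). Dam 3 of the FA diet with saline stood apart, with the highest raw *Elovl6* of the saline dams (64.8 CPM) and a summed interferon list of 266.8 CPM against at most 185.1 CPM in the others. Without it the quasi-likelihood test called 0 of 12967 genes (744 at an unadjusted p of 0.05 or below, smallest adjusted p 0.835), and the slopes were 1.12 for *Irf7* (unadjusted p = 0.0104), 3.06 for *Saa1* (0.0645), 0.74 for *Aspg* (0.371), 1.43 for *Krt19* (0.0657), 0.99 for *Retn* (0.0215) and 0.59 for *Fabp4* (0.0327). With all 16 dams, *Kcnk3* had a saline slope of -0.68 (unadjusted p = 0.443), *Amy1* 0.06, *Cdo1* 0.06 and *Dgat2* -0.26.

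Over the 12907 genes in both fits, the sign of the saline slope equalled that of the fluoxetine logFC for 8106 (62.8%). It did so for 409 of the 556 genes higher at an unadjusted p of 0.05 in fluoxetine dams (73.6%) and for 357 of the 429 lower (83.2%). Without saline dam 3 of the FA diet these shares were 59.8%, 70.3% and 80.6%. Both sets of shares use the fluoxetine fit that includes fluoxetine dam 3 of the FA diet. Genes are not independent of each other, so these shares carry no test. Of all genes tested in saline dams, 52.0% had a positive slope, and 3.18% had one at an unadjusted p of 0.05. The adipocyte list had 12 of 14 positive slopes in saline dams (median 0.41, 2 at an unadjusted p of 0.05), the interferon list 15 of 18 (median 0.69, 7 at that p), the ribosomal list 23 of 24 (median 0.35, 5 at that p), and the skeletal muscle list 0 of 16 (median -2.96). Without saline dam 3 of the FA diet, the adipocyte list had 11 of 14 (median 0.46, 2 at that p), the interferon list 11 of 18 (median 0.19, 2 at that p), the ribosomal list 23 of 24 (median 0.51, 14 at that p), and the skeletal muscle list 0 of 16 (median -2.26). The shares over all genes in that fit were 52.8% positive and 3.71% positive at that p. The difference between the fluoxetine slope and the saline slope was tested in 14361 genes, and edgeR's quasi-likelihood test called 0 (272 at an unadjusted p of 0.05 or below; likelihood ratio test 0, DESeq2 0). For *Kcnk3* the difference was 2.85 (unadjusted p = 0.00407, edgeR adjusted p = 0.9997), so it did not pass the correction.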

How the data were processed

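Poly-A libraries were sequenced on a NovaSeq 6000. According to the submitters' processing notes, reads passed FastQC 0.11.7 and Trim Galore 0.4.4, were aligned to GRCm39 with HISAT2 and were counted per gene with HTSeq (intersection-nonempty mode, per the study's methods); the annotation release and strand setting were not given in the sources used here. The deposited values are raw counts of reads per gene that the authors did not normalize (55379 genes, 15412542 to 36000439 counts per dam). Symbols were matched to GENCODE M39, and 667 genes had no symbol.

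From the counts, genes were filtered with filterByExpr, libraries were scaled by TMM, and high and low Elovl6 dams were compared by edgeR's quasi-likelihood test with diet as a covariate and Benjamini-Hochberg adjustment over all genes tested, *Elovl6* left out (R 4.3.3, edgeR 4.0.16, limma 3.58.1, DESeq2 1.42.0). Printed CPM are TMM-scaled over all 31 dams unless called raw. Single values were compared by exact permutation over 6435 arrangements. The script was tested on simulated data. Counting error is small at this depth for genes above a few CPM and large below 1 CPM.

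The genes named were, by rule, the 5 with the smallest p in each direction (none passed the threshold), the tested elongation and desaturation genes, the 3 members of smallest p in other lists, genes tied to fluoxetine before, and defining markers at 0. Genes named outside this rule are stated as such. The division of dams, the 39 gene lists and the tests were chosen with earlier results of these data known. The share of mitochondrial reads was not analysed here. Alternatives covered the test, the scaling, the filter, covariates, the division and the dams left out. The study's methods give other sizes for the diet groups of fluoxetine dams than the sample labels do, and the labels were followed. One gene of the comparison is not reported here.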

Additional observations from a re-analysis of the deposited data

Results flagged for a closer look

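There were 110 sets of values, each a gene or a library property in the high or the low Elovl6 dams. In 28 of them, 1 dam had a gap to the next past Dixon's 95% critical value. About 1 in 20 would pass it in independent, normally distributed sets. These sets hold unlogged values of the same dams, so the 28 cannot be compared with that share. Most of the 28 flagged values were those of dam 3 of the FA diet in the high group. Its TMM factor was 3.04 against at most 1.57 in the other high dams. It was also the highest high dam, in TMM-scaled CPM, for *Amy1* (10.2), *Adissp* (18.4), *Cdo1* (54.9), *Cidec* (83.2), *Fabp4* (676), *Krt19* (63.2), *Itpr2* (48.3), *Irf7* (21.6), *Cd68* (9.44), *C3* (116), *Fn1* (56.4) and *Tph1* (12.5, next dam 1.46). It was the lowest for *Elovl1* (14.8, next dam 84.5), *Slc1a3* (5.49) and *Ugp2* (16.6). The part of this library in each result is given by the fits without it.

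Dam 13 of the breeder diet was the highest high dam for *Scd1* (2946 CPM), *Orm2* (376), *Slpi* (324) and *Lcn2* (1788), with the next dams at 2049, 45.7, 23.9 and 843. Dam 2 of the breeder diet alone had reads of *Lrrc30* among high dams (0.0429 CPM).

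In the low group, dam 5 of the breeder diet was highest for *Lrrc30* (2.2 CPM), *Acta1* (1536) and *Saa2* (46.4), dam 10 of the FA diet for *Orm2* (85.1), dam 7 of the breeder diet for *Serhl* (12.4) and dam 5 of the FA diet for *Fn1* (5.39) and for total counts (36000000 against 26100000 in the next, rounded).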

How the results depend on the processing

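The count of genes past an FDR of 10% between high and low Elovl6 dams was 0 in the quasi-likelihood fit, 28 with the edgeR likelihood ratio test and 30 with DESeq2. It was 1 each with upper quartile scaling, without the 20 most abundant genes, without a filter on low counts, without the diet covariate, with the share of the 20 most abundant genes as covariate, and between the 5 highest and the 5 lowest dams. It was 3 with *Elovl6* as a continuous covariate and 8 with that covariate and dam 3 of the FA diet left out, a fit chosen after seeing the data, as were those without the 2 muscle-rich low dams. Leaving out each dam gave 0 to 7, with *Kcnk3* called in the 3 fits that called any gene. Under the other alternatives (voom weights, RLE scaling, a filter at 1 CPM, no robust estimation, division by TMM-scaled CPM, adipocyte covariate, either diet alone) it was 0. *Kcnk3* was among the genes called in 8 of these settings, not with the abundance covariate (*Myh7* alone) and not between the 5 highest and 5 lowest dams (*Dgat2* alone). The logFC of *Myh7*, a skeletal muscle list gene, was -53.2 with that covariate and -5.57 without it (edgeR adjusted p = 0.633). The value of -53.2 is not a usable estimate, so this call carries no weight. In saline dams the count was 0, and 5 with the likelihood ratio test, 8 with DESeq2, 5 without a filter and 0 to 2 when each dam was left out (1 without dam 3 of the breeder diet, 2 without dam 2 of the FA diet).

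Only 3 replicate numbers recur among fluoxetine dams on both diets, and the correlations of same-numbered dams were 0.01, -0.06 and -0.02. Among saline dams such correlations ranged from -0.21 to 0.22. The labels do not say what the number stands for, and so few pairs cannot decide whether same-numbered dams shared a batch. A limma-voom fit with the replicate number as a block called 0 genes in fluoxetine dams and 0 in saline dams. Its median logFC of skeletal muscle genes was -1.67. Limma-voom with sample weights and no block gave -1.63, so this value is not particular to the block.

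With the adipocyte level as covariate, list medians were -0.0090 for cholesterol synthesis, 0.12 for fatty acid uptake, 0.19 for milk fat globule, 0.16 for milk proteins, 0.47 for acute phase, -0.73 for complement, -0.038 for adipocyte, -0.21 for macrophage and -0.54 for fibroblast genes, and logFC values turned to 0.055 for *Elovl1*, 0.11 for *Fads1*, -0.038 for *Adipoq*, -1.66 for *Saa2*, 0.091 for *Serhl*, -0.077 for *Itpr2*, -0.30 for *Tph1*, -0.42 for *C3* and -0.83 for *Fn1*. The adipocyte level is the mean of the adipocyte list itself, which holds *Adipoq*. The values near 0 for that list and for *Adipoq* therefore follow from the covariate and are not a result. With the share of the 20 most abundant genes as covariate, medians were 0.50 for acute phase, -0.012 for complement and 0.030 for fibroblast genes, with *Fasn* at 0.11 and *Serhl* at 0.023. Within the FA diet, medians were 0.44 for acute phase, 1.99 for complement, -8.51 for skeletal muscle, 1.42 for macrophage and 1.76 for fibroblast genes, with *Lep* at 0.25, *Orm2* at -0.32, *Lcn2* at -0.0097, *Serhl* at 0.12 and *Pgm5* at 0.010. Within the breeder diet they were -0.033 for complement, -2.98 for skeletal muscle, 0.10 for macrophage and 0.20 for fibroblast genes, with *Elovl1* at 0.073, *Scd1* at 0.10, *Fads1* at 8.75e-05 and *Fasn* at 0.22. Without dam 3 of the FA diet, *Elovl1* was 0.044, *Fads1* 0.019, *Fasn* 0.23 and *Serhl* 0.082, and medians were -0.031 for complement, 0.12 for macrophage and 0.034 for fibroblast genes. Without that dam and the 2 muscle-rich low dams, medians were 0.16 for complement, -1.29 for skeletal muscle and -0.0078 for fibroblast genes, with *Fasn* at 0.034 and *Serhl* at 0.072. Voom weights gave medians of 0.14 for complement, -1.63 for skeletal muscle and 0.20 for fibroblast genes. Between the 5 highest and 5 lowest dams, medians were 1.04 for adipocyte and 1.55 for fibroblast genes, with *Scd1* at 0.061, *Fasn* at 0.45 and *Pgm5* at 0.016. With continuous *Elovl6*, *Orm2* was -0.39, *Slpi* -0.24 and *Lcn2* -0.082, and with dam 3 of the FA diet also left out *Orm2* was -0.00514, *Slpi* -0.11, *Saa2* -0.15, *Elovl1* 0.12 and *Fasn* 0.15. *Fasn* was 0.010 with upper quartile scaling and 0.065 without the diet covariate, where *Serhl* was 0.023. Leaving out each dam gave medians of 0.42 to 1.43 for acute phase, -0.031 to 1.26 for complement, 0.12 to 0.79 for macrophage and 0.034 to 1.30 for fibroblast genes, and logFC values of -0.45 to 0.044 for *Elovl1*, -0.46 to 0.019 for *Fads1*, -0.42 to 0.23 for *Fasn* and -0.14 to 0.082 for *Serhl*. The causes of these differences were not tested.

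No fit had the mitochondrial share as a covariate. Genes below about 1 CPM, among them *Jazf1*, *Ppp1r14c* and *Lrrc30*, rest on few reads per dam.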
